A study of Homo sapiens with 4 samples.

Results

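The stretches of chromosomes 9 and 22 that meet in the BCR-ABL1 fusion of K562 cells were examined for contacts with the ribosomal genes. A contact region belonged to the BCR segment when its midpoint lay in chr22:16800000-23300000 and to the ABL1 segment when it lay in chr9:130700000-134000000, both in build hg38. The intervals are set by coordinates and not by contact values, and 2247 of the 197703 regions of all 4 libraries lay in them, 2010 in the BCR segment and 237 in the ABL1 segment. In 4C (circular chromosome conformation capture), cross-linked DNA is cut with EcoRI, ligated, shortened with FaeI and amplified from a viewpoint, here in the intergenic spacer of the ribosomal genes, so that the sequenced partners mark places joined to those genes. One group of 2 libraries came from untreated K562 cells and the other from K562 cells given 50 µM hemin for 108 h, which starts erythroid differentiation. Both groups are the same leukemia line and carry the same rearrangements, so no library here lacks the fusion.

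BCR-ABL1 arises when the distal part of chromosome 9, starting inside ABL1, is joined to chromosome 22 inside BCR, and the product is a constantly active tyrosine kinase. K562 is a chronic myeloid leukemia line known to carry extra copies of the fused stretch, together with neighbouring sequence from both chromosomes. The ribosomal genes lie in tandem arrays on the short arms of the acrocentric chromosomes, of which chromosome 22 is one, so the BCR segment is close to such an array on its own chromosome. Copy number was not measured in these files: more copies of a stretch and more contacts per copy cannot be told apart, nor can either be told apart from nearness to the array on the same chromosome.

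The sequences below are the contact sites on which the comparison of both groups turns inside ABL1, NUP214 and BCR. They are deposited sequences of single regions on the plus strand, and all 2247 member regions were identical to hg38. The EcoRI site, GAATTC, is in capitals, and each sequence also holds CATG, the FaeI site, at or near the other end.
ABL1, hemin libraries, chr9:130767111-130767263: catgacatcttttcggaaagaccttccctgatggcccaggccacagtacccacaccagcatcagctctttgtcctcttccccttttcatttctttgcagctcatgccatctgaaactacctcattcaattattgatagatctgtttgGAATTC
ABL1, all 4 libraries, chr9:130836036-130836147: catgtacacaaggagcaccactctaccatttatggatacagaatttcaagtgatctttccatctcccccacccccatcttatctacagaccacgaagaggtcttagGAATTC
NUP214, untreated libraries, chr9:131166480-131166516: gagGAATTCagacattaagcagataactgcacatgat
BCR, untreated libraries, chr22:23204334-23204420: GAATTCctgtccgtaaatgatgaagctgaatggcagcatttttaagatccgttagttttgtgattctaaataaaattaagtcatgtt
BCR, hemin libraries, chr22:23216238-23216270: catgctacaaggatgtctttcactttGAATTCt

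Most member regions held 1 of these motifs at an end rather than both. In the 4 libraries, 75.7% to 80.9% of the member regions started or ended with GAATTC or CATG, against 67.3% to 74.1% in the whole series, and 6.29% to 7.38% of them had both motifs at their ends. Regions ending in GAATTC held a median of 124 to 184 reads and those with CATG alone a median of 5.50 to 8.00, and since both ends of 1 ligated piece can give a region, regions are not independent. An EcoRI site lay within 100 bases of 52.6% and 53.0% of the member regions in the untreated and of 56.7% and 56.5% in the hemin libraries. In the whole series these shares were close, at 52.4% and 52.3% in the untreated and 56.3% and 55.5% in the hemin libraries. Among regions with over 100 reads they were 93.4% to 97.8% for members and 89.7% to 92.5% in the whole series. Densities are therefore given per Mb and also as the share of EcoRI fragments that hold a region.

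The untreated libraries held 31721628 and 34000240 reads in 50751 and 50221 regions, and the hemin libraries 19548906 and 20577487 reads in 47042 and 49689 regions. Contact sites were formed by joining overlapping regions of the 4 libraries, and the members fell into 1140 sites. The 2 libraries of a group were very alike. Squared deviations from the shares set by library depth were taken over the 274 member sites with at least 100 reads in the untreated pair. Their median was 0.451 times the variance of sampled read pairs. Over 223 such sites in the hemin pair it was 0.426, where sampling alone gives 0.455. Of these sites 91.2% and 88.3% lay within the 95% range of sampling, while 7 and 11 sites held no read in 1 library of the pair, and the mean squared deviations of 6.57 and 6.90 were above sampling noise, so the libraries were not counted as 1. The study calls them biological replicates and the labels name no separate cultures. The p-values below measure only the spread between such pairs, and reads had no molecular identifiers, so intervals cover counting error only.

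Contacts of the ribosomal genes were denser in the BCR segment than on the rest of chromosome 22 in all 4 libraries. Inside it lay 80.2 and 78.3 regions per Mb in untreated cells and 71.4 and 79.4 after hemin. Past it, chromosome 22 held 32.3 and 32.2 regions per Mb in untreated cells and 24.3 and 24.8 after hemin. The ratio was 2.48 (95% interval 2.22 to 2.76) and 2.43 (2.18 to 2.72) in the untreated and 2.94 (2.61 to 3.32) and 3.20 (2.85 to 3.60) in the hemin libraries, and every interval lay above 1. The mean log2 ratio was 1.46 ± 0.19 (SD, n = 4), with p = 0.125 in the exact two-sided sign permutation test, the smallest that 4 libraries allow. Since regions of 1 fragment are not independent, these intervals are too narrow. The same comparison over fragments was as clear: 21.4% and 21.6% of the EcoRI fragments of the segment held a region in the untreated and 20.2% and 22.3% in the hemin libraries, against 8.68%, 8.59%, 6.46% and 6.77% past it.

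**Figure D1:**
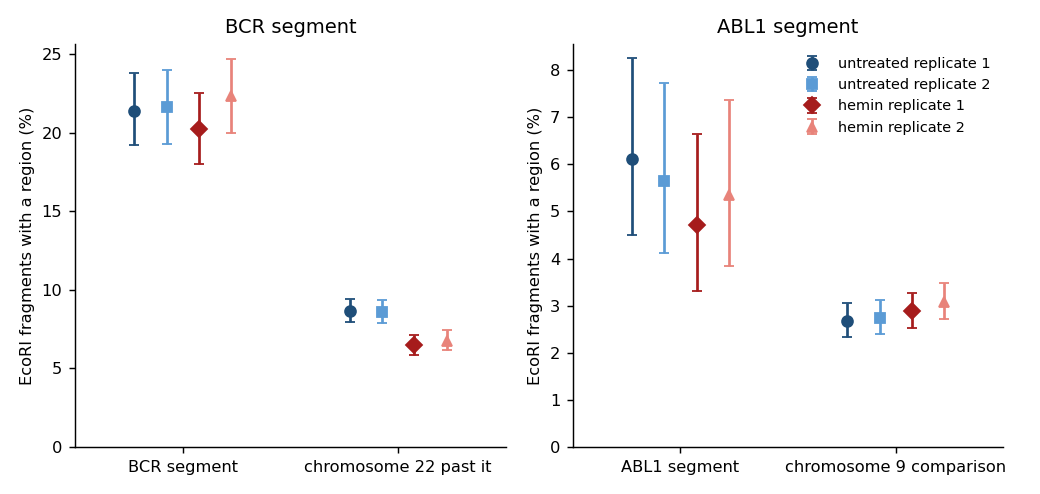
Share of EcoRI fragments that held a contact region (y axis, percent) in each segment and in its comparison interval. Points are the 4 libraries and bars are 95% Wilson intervals. In the left panel the segment lies at 20.2% to 22.3% and the rest of the chromosome at 6.46% to 8.68%, and in the right panel the segment lies at 4.71% to 6.12% and the comparison at 2.67% to 3.08%.

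In the ABL1 segment the excess was smaller, and per Mb it was clear of counting error only in the untreated libraries. The segment held 67 and 63 regions in the untreated and 51 and 56 in the hemin libraries over 3.30 Mb. The comparison interval, chr9:100000000-130000000, held 337 and 350 in the untreated and 382 and 405 in the hemin libraries over 30.0 Mb. The density ratios were 1.81 (1.37 to 2.36) and 1.64 (1.23 to 2.15) in the untreated and 1.21 (0.888 to 1.63) and 1.26 (0.933 to 1.67) in the hemin libraries. The mean log2 ratio was 0.54 ± 0.28 (SD, n = 4; exact sign permutation test, p = 0.125). Counted over EcoRI fragments, which are rarer per Mb here than in the comparison (193 against 264 cut sites per Mb), the shares were 6.12% and 5.65% in the untreated and 4.71% and 5.34% in the hemin libraries, against 2.67% to 3.08% in the comparison, and within each library the Wilson interval of the segment lay above that of the comparison. The segment also differed in base composition and gene density, with a GC content of 50.1% against 42.2% and 16.1 against 8.13 coding genes per Mb, and their part in the ratio was not tested.

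Reads gave the same direction with other sizes. In the BCR segment the ratio of reads per Mb was 1.84 and 1.82 in the untreated and 2.58 and 2.61 in the hemin libraries. In the ABL1 segment it was 1.33 and 1.32 before and 2.24 and 2.06 after hemin. A single region held 29.1% and 29.7% of the ABL1 segment's reads in the hemin libraries, and a single region of the comparison interval held 32.7% and 33.5% of its reads in the untreated libraries. Without the highest region of each interval the mean log2 read ratio of the ABL1 segment was 0.74 ± 0.062 in place of 0.76 ± 0.40.

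Neither segment was evenly covered. On chromosome 22 the 0.5 Mb windows from 17 to 21 Mb held 10 to 39 regions each. The 4 windows from 21 to 23 Mb, which run from the distal 22q11.2 genes through the immunoglobulin lambda locus, held 41 to 92. The window that spans the end of the segment held 37 to 45, and the next one 2 to 4. Over the genome the median window held 4.00 or 5.00 regions and the 95th percentile was 20.0 to 23.0. From 21 Mb to the end of the segment, 30.4% and 29.5% of the EcoRI fragments held a region in untreated cells and 30.8% and 31.6% after hemin. Before 21 Mb the shares were 15.7% and 16.5% in the untreated and 13.4% and 16.4% in the hemin libraries. The split at 21 Mb was chosen from this profile and was given no test.

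**Figure D2:**
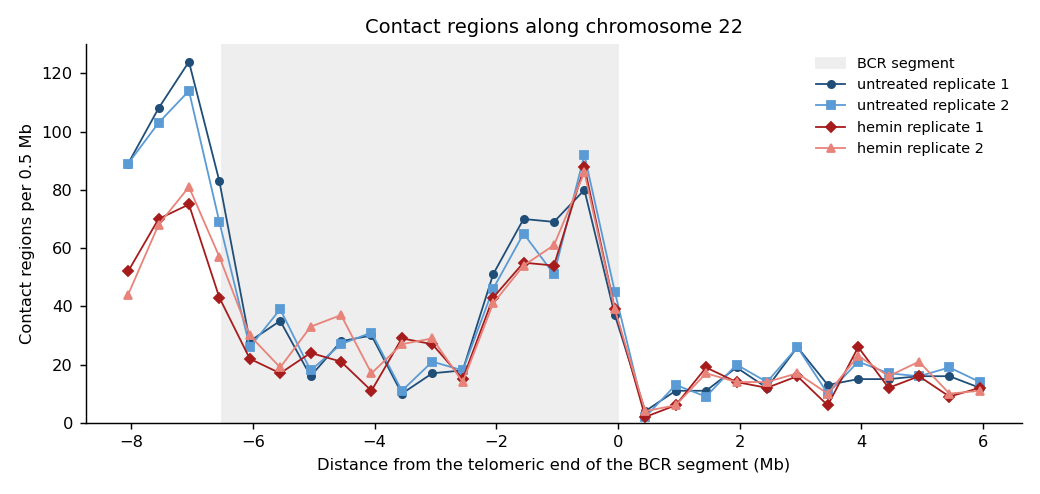
Contact regions per 0.5 Mb window (y axis) against the distance of the window from the telomeric end of the BCR segment in Mb (x axis), with 1 line per library and the segment in grey. Counts rise within the last 2.30 Mb of the segment to between 80 and 92 per window and fall to between 2 and 4 in the first window wholly past its end, and a second high stretch lies at and beyond the centromeric end.

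The step at the telomeric end of the BCR segment was steep in every library. In the last 1 Mb inside it lay 138 and 147 regions in the untreated and 145 and 142 in the hemin libraries. In the first 1 Mb outside lay 20 and 23 in the untreated and 12 and 14 in the hemin libraries. This end of the interval lies inside BCR (chr22:23179704-23318037, plus strand), the gene of a protein with a GTPase-activating domain, which is also where the translocation joins chromosome 9. The nearest regions lay 48.3 to 74.3 kb inside the end, with 1 to 178 reads, and 10.9 to 36.5 kb outside it, with 9 to 151 reads. At the centromeric end the order was the opposite, with 53 to 81 regions in the 1 Mb inside and 118 to 210 in the 1 Mb outside, toward the centromere and the short arm.

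The ABL1 segment was covered almost only at its start. From the segment's centromeric end to the last base of NUP214 (chr9:130700000-131234663) lay 54 and 47 of its regions in the untreated and 38 and 48 in the hemin libraries, which were 74.5% to 85.7% of the segment's regions in 0.535 of its 3.30 Mb. There 23.3% and 20.9% of the EcoRI fragments held a region in the untreated and 17.1% and 21.7% in the hemin libraries, beside 20.2% to 22.3% in the whole BCR segment. Past NUP214 the shares were 1.77%, 1.77%, 1.57% and 1.18%, below the 2.67% to 3.08% of the comparison interval. Their Wilson intervals overlapped those of the comparison except in hemin replicate 2 (0.542% to 2.55% against 2.72% to 3.48%). This division was also chosen from the profile. Leaving out the first 1 Mb turned the mean log2 region ratio from 0.54 to -1.42, so the excess of contact density lay in the first stretch. The segment's start showed a step in every library, with 57, 49, 40 and 48 regions in the first 1 Mb inside and 12, 10, 11 and 11 in the 1 Mb before it. At the telomeric end there was none, with 0 to 4 regions inside and 6 to 9 outside.

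**Figure D3:**
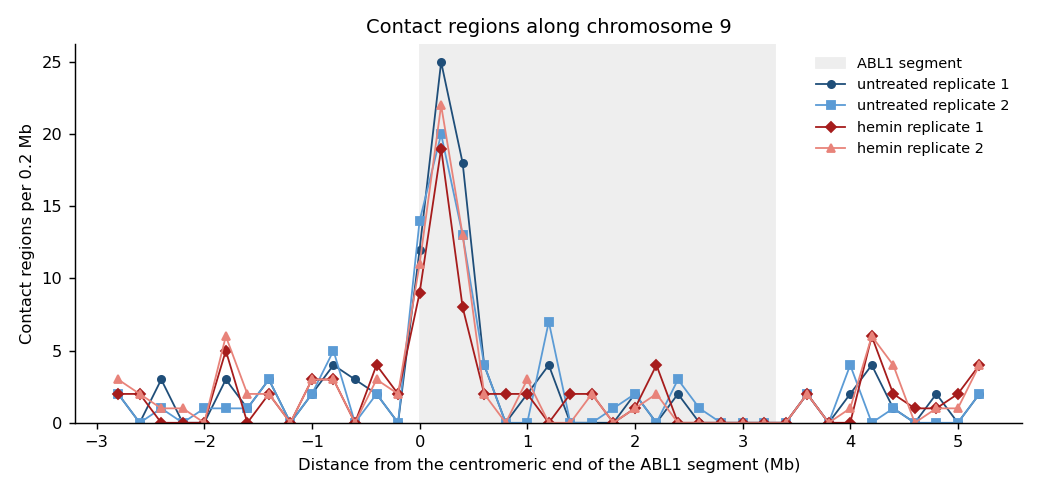
Contact regions per 0.2 Mb window (y axis) against the distance of the window from the centromeric end of the ABL1 segment in Mb (x axis), with 1 line per library and the segment in grey. In all 4 libraries the peak, at 19 to 25 regions, lies within the first 0.5 Mb of the segment, and windows farther inside the segment hold between 0 and 7.

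The density of the whole BCR segment also had to be read against its position on the chromosome. At the same coordinates, the ratio of region density inside to past the interval was 5.64, 5.71, 2.10 and 2.09 on chromosome 13, in the order untreated replicates 1 and 2, hemin replicates 1 and 2, and 3.14 to 6.72 on chromosome 14. It was 1.65 to 2.12 on chromosome 15 and 0.534 to 0.579 on chromosome 21. These are the other acrocentric chromosomes, and the interval takes in different distances from the centromere on each, so a high ratio was not particular to chromosome 22. The hemin libraries had lower ratios than the untreated libraries on chromosomes 13, 14 and 15 and higher ones on chromosome 22.

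The contrast with the comparison intervals differed between the groups, in opposite directions in the BCR and ABL1 segments and by more than the gap between libraries of a group. In the BCR segment the log2 region ratio was 1.31 and 1.28 in the untreated and 1.56 and 1.68 in the hemin libraries, a difference of 0.32. Region density inside the segment overlapped between the groups (71.4 to 80.2 per Mb), while the density past it did not (32.2 and 32.3 against 24.3 and 24.8). In the ABL1 segment the log2 region ratio was 0.85 and 0.71 in the untreated and 0.28 and 0.33 in the hemin libraries, a difference of -0.48. The exact permutation test of 2 against 2 libraries gave p = 0.33 for each, the smallest it allows. Log2 read ratios were higher after hemin by 0.50 in the BCR and 0.69 in the ABL1 segment, with the same p. Without the highest region of each interval these differences were 0.40 and 0.017, so that of the ABL1 segment rested on single regions.

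The total reads of each segment changed little as scaled here, while the median log2 change of all 100 kb bins tested was 0.39. Both segment totals lay below that median, so the positive value of the ABL1 segment was no rise over the typical bin. Scaled by the trimmed mean of M-values (TMM), the BCR segment had 3275 and 3255 CPM (reads scaled to the library total) in the untreated and 2864 and 3033 in the hemin libraries, a log2 fold change of -0.15 (SE 0.035, edgeR adjusted p = 0.0287). Scaling by total reads turned this to 0.05 (adjusted p = 0.217). The ABL1 segment had 486 and 492 CPM in the untreated and 555 and 532 in the hemin libraries, a log2 fold change of 0.15 (SE 0.032, edgeR adjusted p = 0.0206). It was -0.26 when each region counted once (adjusted p = 0.292), and leaving out untreated replicate 1, untreated replicate 2 or hemin replicate 1 ended its call (adjusted p = 0.183, 0.206 and 0.0609). Scaled by total reads, the ABL1 segment had a log2 fold change of 0.35 and the median bin 0.59, so both segments stayed below it. Whether a segment differed from the typical bin was not tested. On the TMM scale the comparison intervals fell by 0.65 on chromosome 22 and 0.54 on chromosome 9. On chromosome 9 the highest region of that interval held 32.7% and 33.5% of its reads in the untreated and 10.3% and 9.41% in the hemin libraries. Its number of regions did not fall, with 337 and 350 in the untreated and 382 and 405 in the hemin libraries. On chromosome 22 the highest region held 11.7% and 11.1% in the untreated and 3.90% and 4.09% in the hemin libraries.

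The places in contact were mostly different between the groups. Of the 483 member sites found in both untreated libraries, 345 were in neither hemin library, and of the 412 found in both hemin libraries, 289 were in neither untreated library. These shares, 71.4% and 70.1%, stand beside 80.4% and 82.6% in the whole series. In the BCR segment alone they were 70.1% and 68.4%, and in the ABL1 segment 82.4% and 85.7%. Of the 1140 member sites, 105 (9.21%) were in all 4 libraries, against 4.24% in the whole series. Such sharing was found in the BCR segment, where 9.77% of the sites were in all 4 libraries against 4.21% past it, and less in the ABL1 segment, with 6 of 127 sites (4.72%) against 2.49% in its comparison. Over EcoRI fragments the shares in all 4 libraries were 14.4% and 6.64% on chromosome 22 and 4.05% and 3.54% on chromosome 9. A denser stretch shares more sites between any libraries, and its part in this was not tested. Some shared sites of the BCR segment lay at separate places but held similar reads. In the order untreated replicates 1 and 2, hemin replicates 1 and 2, examples were 122, 111, 216 and 237 reads. Others were 147, 140, 219 and 235, then 156, 130, 229 and 223, and 142, 116, 200 and 225. Whether reads of the same sequence were counted at more than 1 such place, and so added to the share, was not tested.

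**Figure D4:**
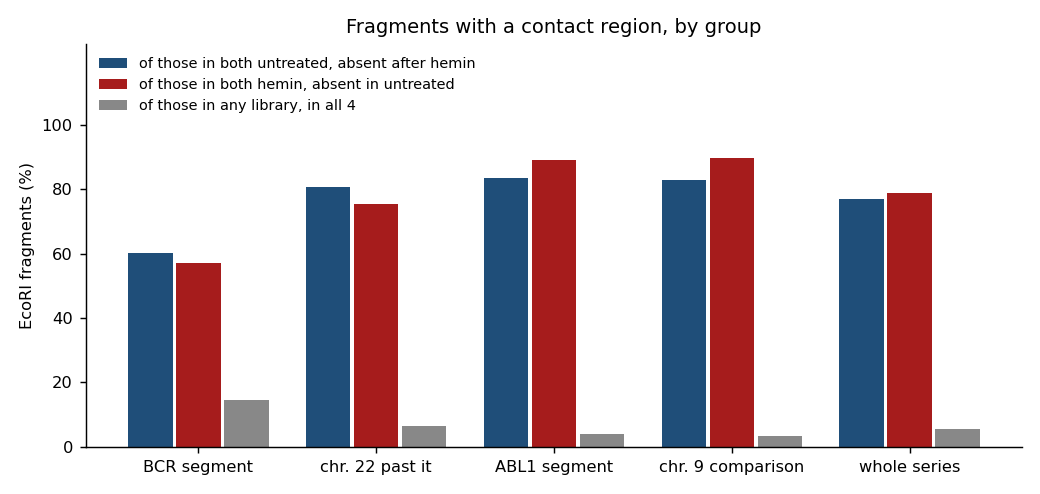
Shares of EcoRI fragments (y axis, percent) in each interval. Of the fragments found in both libraries of a group, the share in no library of the other group is shown. Of the fragments found in any library, the share in all 4 libraries is shown. In the BCR segment 60.3% of the untreated and 56.9% of the hemin fragments were of 1 group only, against 80.5% and 75.4% on the chromosome past it and 76.8% and 78.8% in the whole series. In the ABL1 segment these shares were 83.3% and 88.9%, against 82.7% and 89.6% in its comparison.

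The brightest sites showed the same turnover. At least 100 reads in both untreated libraries were found at 187 member sites, which held 89.9% of the segments' reads, and 115 of these had no read in either hemin library. In the hemin libraries there were 158 such sites with 87.6% of the reads, and 97 had no read in untreated cells. These shares of 61.5% and 61.4% stand beside 77.7% and 81.9% in the whole series. Along 65 bins of 100 kb in the BCR segment, the number of regions correlated at Pearson's r of 0.919 to 0.955 within a group and 0.704 to 0.744 between groups, where Spearman's rho was 0.596 to 0.638. For log2(reads + 1) Pearson's r was 0.958 to 0.963 within and 0.192 to 0.223 between groups, with a rho of 0.465 to 0.496 between them. Along 33 bins of the ABL1 segment the rho between groups was 0.411 to 0.667 for regions and 0.460 to 0.640 for reads. These are descriptions over neighbouring bins that share libraries and cut-site density.

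In the edgeR test of single sites nearly everything passed, in the segments and elsewhere. At an adjusted p under 0.05, 260 of the 570 member sites tested were higher and 265 lower in hemin-treated cells, 92.1% in all, against a background of 94.8% of the 43133 sites tested in the genome. For bins of 100 kb, 60 of 80 were called against a background of 82.7%, and for genes 101 of 122 against 86.5%. Higher and lower calls made up 46.1% and 40.4% of all genes tested. For EcoRI fragments, 359 of 408 were called by edgeR and by DESeq2 alike, against backgrounds of 93.0% (44.2% lower) and 93.5%. DESeq2 called 519 member sites, 66 bins and 104 genes against backgrounds of 94.2%, 87.9% and 89.3%. Under edgeR with each region counted once, 0 of 80 member bins, 1 of 127 genes and 189 of 432 fragments passed, against backgrounds of 3.75%, 2.42% and 48.5%, and in that fit 2.14% of all bins were higher and 1.62% lower, and of all genes 1.28% and 1.13%. With the replicate number as a block, none of the 570 sites, 80 bins and 408 fragments passed (207, 49 and 119 had an unadjusted p under 0.05), nor did any in the genome, and 11 of 122 member genes passed against a background of 8.40% (3.87% higher and 4.52% lower). Without untreated replicate 1 or untreated replicate 2 the median log2 change of all sites tested was 6.35 and 6.25, in place of 0.47. In the fits of all 4 libraries the members' shares were near or below the background. A call thus carries no information about the members beyond what holds for the genome. The values of single sites and genes follow for what they show of place and size. Fold changes are on the TMM scale, which was set separately for sites, bins and genes. Fold changes and bounds of a site and of a gene are therefore not comparable. The median log2 change of all features tested was 0.47 for sites, 0.39 for bins and 0.30 for genes. Scaling by total reads moved these medians by -0.25, 0.20 and 0.36.

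ABL1 (chr9:130713043-130887675, plus strand), a tyrosine kinase gene, was contacted in all libraries at changing places. Reads of a gene, here and below, are those of regions that met no other gene within 2.5 kb on each side. ABL1 held 4866 and 5329 in the untreated and 5269 and 5278 in the hemin libraries, from 19 to 23 regions inside the gene. The log2 fold change was 0.55 (SE 0.056, edgeR adjusted p = 0.00257), and with each region counted once it was -0.35 (adjusted p = 0.387). The brightest site of the segment, chr9:130767111-130767263, lies in an intron of ABL1. It had no read in the untreated and 3405 and 3455 in the hemin libraries (edgeR adjusted p = 7.56e-06). On the TMM scale of sites this was at least 2219.7-fold higher against a floor of 3 reads per library. Such bounds depend on the scaling. A second intronic site, chr9:130790753-130790930, held 1083 and 1173 reads in the untreated and 194 and 165 in the hemin libraries, a log2 fold change of -1.69 (SE 0.12, edgeR adjusted p = 9.70e-05). Another, chr9:130836036-130836147, held 874 and 975 reads and 406 and 445 reads, and its log2 fold change, -0.16, fell short of the threshold (edgeR adjusted p = 0.0975). Among these 3 bright intronic sites, 2 differed between the groups, in opposite directions. Repeat bases made up 27.5%, 100% and 0% of their deposited sequences, in the order given.

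NUP214 (chr9:131125573-131234663, plus strand) encodes a nucleoporin and is itself a fusion partner of ABL1 in some leukemias. Regions inside the gene held 4029 and 4341 reads in the untreated and 1765 and 1895 in the hemin libraries, part of them where NUP214 overlaps other annotated genes. Reads of NUP214 alone were 1643 and 1749 against 273 and 277, a log2 fold change of -2.13 (SE 0.065, edgeR adjusted p = 0.000648). The highest untreated site, in an intron at chr9:131166480-131166516, held 2345 and 2556 reads and none in the hemin libraries, at least 420.3-fold lower. A site at chr9:131191199-131191333, over an exon of a gene without a symbol inside a NUP214 intron, held 29 and 35 reads in the untreated and 742 and 798 in the hemin libraries, a log2 fold change of 5.54 (SE 0.11, edgeR adjusted p = 7.56e-06). The intronic site at chr9:131217440-131217580 held 1153 and 1243 reads in untreated cells and none after hemin. Repeat bases made up 83.8%, 100% and 0% of the deposited sequences of these NUP214 sites, in the order given.

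**Figure D5:**
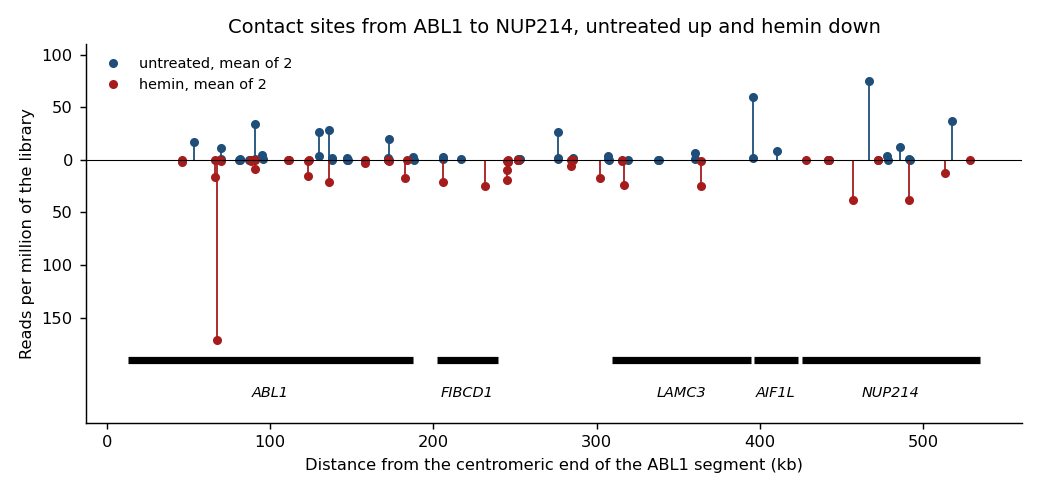
Reads as CPM at each contact site (y axis, mean of the 2 libraries of a group, untreated upward and hemin downward) against the distance in kb from the centromeric end of the ABL1 segment (x axis), with the bodies of 5 genes as bars. The tallest hemin site, in ABL1, and the tallest untreated site, in NUP214, have no reads in the other group.

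Between ABL1 and NUP214 lie FIBCD1, which encodes a chitin-binding membrane protein, LAMC3, a laminin chain, and AIF1L. LAMC3 held 350 and 363 reads in the untreated and 1000 and 1032 in the hemin libraries, a log2 fold change of 2.01 (SE 0.059, edgeR adjusted p = 0.000648). FIBCD1 held 108 and 102 against 454 and 399 (2.52, SE 0.15, edgeR adjusted p = 0.000837). Between LAMC3 and AIF1L, outside any annotated gene, the site at chr9:131095999-131096088 held 1954 and 1959 reads in the untreated libraries and none after hemin. Of its deposited sequence 83.3% was repeat. AIF1L had 500 reads in untreated replicate 1 and none in the other 3 libraries.

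Farther along the chromosome 9 segment the contacts were few, and those of a gene often came from 1 site. GFI1B, a transcriptional repressor needed for erythroid and platelet development, had no reads in the untreated and 813 and 754 in the hemin libraries. All lay at 1 intronic site, chr9:132982579-132982639. These reads were at least 369-fold higher by gene (edgeR adjusted p = 0.000696) and at least 507-fold by site, as genes and sites were scaled separately. GFI1B was the only 1 of the 7 listed blood and erythroid genes with assigned reads. PRRC2B held 634 and 654 reads in the untreated libraries and none after hemin. AK8, an adenylate kinase, and NTNG2, a netrin-like guidance gene, had none in the untreated and 166 and 180, and 69 and 63, in the hemin libraries. Of the 16 other listed genes of the segment, 9 held reads, 6 were tested, 4 were higher and 1 lower. Of all genes tested, 46.1% were higher and 40.4% lower. TSC1 and CEL held reads in 1 library each. Of the 10 listed nucleolar, ribosomal and polymerase genes in both segments, such as TTF1, RPL7A and SURF6, 1 held reads. That was RANBP1, with 29 in hemin replicate 1.

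BCR held 648 and 648 reads in the untreated and 605 and 765 in the hemin libraries, from 5 to 8 regions a library. The log2 fold change was 0.57 (SE 0.11, edgeR adjusted p = 0.0147), and -0.52 with each region counted once (adjusted p = 0.455). The highest untreated site, in an intron at chr22:23204334-23204420, held 301 and 297 reads and none after hemin, at least 51.3-fold lower. The highest hemin site lay about 12 kb further, in an intron at chr22:23216238-23216271, with 443 and 521 reads and none in untreated cells, at least 312-fold higher. Repeat bases made up 78.2% of the deposited sequence of the untreated site and 0% of that of the hemin site. The call for the gene was lost without untreated replicate 1 (adjusted p = 0.102) or untreated replicate 2 (0.120). XKR3, at the centromeric end of the segment and also known as a fusion partner in K562, held 605 and 604 reads in the untreated libraries and none after hemin, at least 143-fold lower (edgeR adjusted p = 0.000648), and all but 61 and 60 of these lay in the part of the gene outside the segment or beside it. Of the 4 fusion partners 2 were thus higher and 2 lower, beside 46.1% and 40.4% of all genes tested.

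Some bright sites of the BCR segment held reads in all libraries, and 3 of them, all outside genes, are given here. The site at chr22:22907884-22907963, near the immunoglobulin lambda constant gene IGLC3, held 1621, 1740, 1120 and 1257 reads (log2 fold change 0.46, SE 0.07, edgeR adjusted p = 0.00197). At chr22:21631634-21631748 lay 1257, 1049, 1002 and 1007 reads (0.76, SE 0.12, adjusted p = 0.00250), and at chr22:22046613-22046763 lay 815, 857, 768 and 838 (0.90, SE 0.068, adjusted p = 0.000139). All 3 passed as higher after hemin on the TMM scale, beside a median of 0.47 over all sites tested.

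Others were found in 1 group only. Sites without a read in untreated cells were chr22:17112062-17112197 in a UTR of the interleukin receptor gene IL17RA (1051 and 1134 reads after hemin), chr22:22042969-22043006 in an intron of PRAMENP (962 and 974), and 2 outside genes, chr22:20288829-20289012 (933 and 984) and chr22:18948438-18948541 (879 and 982). Against the floor they were at least 602-fold to 707-fold higher. Sites without a read after hemin were chr22:21639950-21640028 outside genes (1937 and 2033 reads in untreated cells), chr22:19264714-19264755 in an intron of CLTCL1 (1661 and 1893) and chr22:20553543-20553611 in an intron of MED15 (1655 and 1780). Against the floor they were at least 295-fold to 341-fold lower. Repeat bases made up 100% of the deposited sequence at chr22:21639950-21640028 and 30.4% of that in MED15.

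The immunoglobulin lambda locus lies in the dense part of the BCR segment. From its first to its last annotated gene inside the segment (chr22:22026076-22923034), 28.9% and 28.4% of the EcoRI fragments held a region in the untreated and 32.6% and 34.4% in the hemin libraries, beside 29.5% to 31.6% from 21 Mb to the end of the segment. This locus encodes antibody light chains and is used in B cells, not in erythroid cells. Of its 91 listed genes, 28 held reads and 22 were tested, of which 11 were higher and 8 lower, beside 46.1% and 40.4% of all genes tested. The gene segments are short, so most of these reads lay beside them, within 2.5 kb. Near IGLV3-31 lay 1557 and 1639 reads in the untreated and 166 and 207 in the hemin libraries (log2 fold change -2.61, SE 0.11). Near IGLV3-30 the order was reversed, with 191 and 242 against 1425 and 1372 (3.19, SE 0.15), and both passed with an edgeR adjusted p of 0.000648. IGLC3 took the shared constant-region site and had a log2 fold change of -0.0049 (edgeR adjusted p = 0.941). The site itself had 0.46 (edgeR adjusted p = 0.00197). Sites and genes were scaled separately, so the value of the gene and that of the site are on different scales. PRAME, a tumour antigen gene inside the locus, had no reads in untreated cells and 478 and 461 after hemin.

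In the stretch deleted in the 22q11.2 syndrome, 18 of 32 listed genes held reads and 16 were tested, of which 4 were higher and 8 lower. Over all genes tested the shares were 46.1% higher and 40.4% lower. CRKL, an adaptor that is a substrate of BCR-ABL1, held 1283 and 1473 reads in the untreated libraries and none after hemin, at least 325-fold lower. CLTCL1, a clathrin heavy chain gene, held 3370 and 3907 against 84 and 130 (-4.60, SE 0.25, edgeR adjusted p = 0.000738). HIRA, a histone chaperone gene, held 776 and 702 in untreated cells and none after hemin. In the other direction, ARVCF held none and then 428 and 483, SNAP29 none and then 280 and 317, and TXNRD2, a mitochondrial thioredoxin reductase gene, 3 and 0 and then 694 and 819. TANGO2 held 475 and 546 against 415 and 410 and did not pass the threshold (edgeR adjusted p = 0.129).

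Nearer the centromere, 9 of the 14 listed genes of the cat eye region held reads and all 9 passed, 5 higher and 4 lower. Of all genes tested in the genome 86.5% passed, 46.1% higher and 40.4% lower. IL17RA held no reads in untreated cells and 1148 and 1276 after hemin, and BID, a pro-apoptotic member of the BCL2 family, none and then 767 and 774. ADA2, an adenosine deaminase gene, held none and then 400 and 428. BCL2L13 was met in all libraries, with 233 and 232 against 402 and 403 reads (log2 fold change 1.29, SE 0.079, edgeR adjusted p = 0.000884). MICAL3, an actin-oxidising enzyme gene, held 3236 and 3532 reads in the untreated and 444 and 430 in the hemin libraries (-2.45, SE 0.082, edgeR adjusted p = 0.000648). CECR2, a chromatin remodelling factor gene, held 2625 and 2750 against 475 and 468 (-2.01, SE 0.071, edgeR adjusted p = 0.000648). GAB4 held 1479 and 1615 against 633 and 640 (-0.78, SE 0.067, edgeR adjusted p = 0.00170).

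Over all 534 annotated genes of the segments, 151 held assigned reads and 122 were tested. Of those tested 51 were higher and 50 lower, beside 46.1% and 40.4% of all genes tested in the genome. The median log2 fold change was -0.11 beside 0.30 over all genes tested. Reads were found only in hemin libraries for 42 of the 151 genes (27.8%) and only in untreated libraries for 43 (28.5%). Of the 10035 genes with assigned reads in the whole genome these shares were 32.9% and 28.1%.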

How the data were processed

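The 4C libraries of K562 cells, 2 untreated and 2 with hemin, were each deposited as a list of contact regions. The authors removed adapters (cutadapt 3.5), kept reads with a 4C primer, aligned them to hg38 (BWA 0.7.17-r1188, SAMtools 1.14) and deposited the read count per region, with mates counted singly, unnormalised, and with no duplicate removal stated. A further file per group holds a signal that the authors deposited for regions found in both replicates (bedtools 2.29.1) after reads made wholly of repeats were removed, and it served as an alternative only. All columns used belong to a sample or group.

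The 4 libraries held 19548906 to 34000240 reads. Densities were compared within each library with exact binomial intervals of the rate ratio (95%) and exact permutation tests. Overlapping regions were joined to sites, and sites, 100 kb bins, EcoRI fragments and GENCODE 44 genes of the whole genome were tested with edgeR 4.0.16 (quasi-likelihood, TMM scaling, Benjamini-Hochberg adjusted p under 0.05, R 4.3.3), checked on simulated counts. DESeq2 1.42.0 was an alternative. Shares carry 95% Wilson intervals. Regions widened by 2.5 kb were given to a gene only where they met 1 gene. Named sites were, per segment, the 5 with the highest mean CPM and the 4 highest and 4 lowest fold changes among called sites with at least 100 reads in both libraries of a group and no overlap between groups. Sites named as highest in BCR, ABL1, NUP214 or GFI1B were chosen after their values were seen. Named genes were those of 7 lists that held reads. The members, lists and tests were chosen with earlier results of these data known, and the EcoRI fragments, the other acrocentric chromosomes and the divisions at 21 Mb and NUP214 were added after seeing the data. A few named genes and sites are not reported here.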

Additional observations from a re-analysis of the deposited data

How the results depend on the processing

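The BCR segment kept its excess under all alternatives, with log2 region ratios of 1.35 to 1.63. The ABL1 log2 region ratio (0.54) reversed to -1.42 without the first 1 Mb, and was 1.00 per EcoRI site, 0.94 as a share of EcoRI fragments, 1.07 against the nearest stretch and 1.12 against chromosome 9 past the segment. Its log2 read ratio (0.76) became -1.99 without the first 1 Mb, 1.21 per EcoRI site and 2.18 against chromosome 9 past the segment. The hemin difference of its region ratio (-0.48) was -0.37 over regions with at least 10 reads. The hemin difference of the read ratio was 0.40 for BCR (0.50) and 0.017 for ABL1 (0.69) without the highest region of each interval, an alternative chosen after seeing the data. With sites within 2.5 kb merged, 111 untreated and 98 hemin sites (345 and 289) were of 1 group only. Merging also lowers the number of sites, and no share over the whole series is given for it. These counts therefore do not show whether turnover changed or differed from the genome. An EcoRI site lay near 54.7% of the member regions on average, near 74.9% of those with at least 10 reads and inside 50.3%.

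The libraries share replicate numbers, but same-numbered libraries did not deviate together (r = 0.00410 over 16610 bins). With the replicate number as a block, edgeR called 0 sites, 0 bins and 0 EcoRI fragments in the segments, with 207, 49 and 119 at an unadjusted p under 0.05, and 3 genes higher and 8 lower. Without the block the counts were 260 higher and 265 lower for sites, 27 and 33 for bins, 51 and 50 for genes and 176 and 183 for fragments. DESeq2 called 519 sites, 66 bins, 104 genes and 359 fragments. Under the block the segment totals kept log2 changes of -0.15 for BCR and 0.15 for ABL1 (adjusted p = 0.109 and 0.104). With each region counted once edgeR called 0 bins (13 at an unadjusted p under 0.05), 1 gene higher and 0 lower (49), and 83 fragments higher and 106 lower, and the totals were -0.054 for BCR and -0.26 for ABL1. Sites counted once could not be fitted. Scaled by total reads, the BCR total was 0.05.

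Leaving out 1 library gave 211 to 225 sites higher and 113 to 267 lower, the lowest being 113 without untreated replicate 1 and 113 without untreated replicate 2. Likewise 26 to 27 bins were higher and 22 to 35 lower, 40 to 47 genes higher and 33 (without untreated replicate 1) to 54 lower, and 156 to 167 fragments higher and 103 to 187 lower, with 103 and 104 without untreated replicates 1 and 2. The region ratios were 1.38 to 1.52 (BCR) and 0.44 to 0.63 (ABL1), the read ratios 1.04 to 1.21 and 0.62 to 0.87, the hemin differences of region ratios 0.26 to 0.38 and -0.55 to -0.41 and of read ratios 0.50 to 0.51 and 0.63 to 0.75, and the totals -0.20 to -0.12 and 0.11 to 0.17. The BCR total did not pass without untreated replicate 1 (adjusted p = 0.0634). Sites of 1 group only numbered 356 to 367 and 297 to 299, counts given without the share over the whole series and so not set against the genome.

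Among single genes, with each region counted once the sign turned for ABL1 (-0.35), BCR (-0.52), FIBCD1 (-1.52), LAMC3 (-0.19), TANGO2 (-0.71), PI4KA (-0.052), IGLVIV-65 (-0.049), IGLV8-61 (-1.27), IGLV3-31 (0.34), IGLV3-27 (-0.053), IGLVI-20 (-1.0) and IGLV3-1 (-0.053). IGLV2-18 turned with DESeq2 (0.00044), total reads (0.30) and without untreated replicate 1 (0.056), and IGLC3 with DESeq2 (0.041), total reads (0.35) and without hemin replicate 1 (0.022). The causes were not tested.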
